A study of Sus scrofa with 14 samples.

Results

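pESCLC-FL6i is a porcine embryonic stem cell-like line that was started from blastocyst outgrowths and kept in FL6i, and its transcriptome was compared with that of pESCLC-primary, the outgrowths before they were passaged. Both groups were chosen by their sample labels, 2 samples each, so that 4 of the 14 samples of the series enter the comparison. Of the 19588 genes in the table, 14820 had at least 10 normalized counts (reads divided by 1 size factor per sample) in at least 2 of the 4 samples and were tested. The pESCLC-primary samples were outgrowths of pig blastocysts in F, a medium for primed-type cells with FGF2. The authors grew such outgrowths from intact blastocysts or from isolated inner cell mass. FL6i is a naive human stem cell base medium with LIF and FGF2 and with inhibitors of p38 (BIRB796), JNK (SP600125), TGFB receptors (SB431542), MEK (PD0325901), GSK3 (CHIR99021) and BMP receptors (LDN193189), and cells from F were moved into it at culture day 8. Both pESCLC-FL6i samples carry the same line code in their labels and were taken at passages 3 and 9, so that by its labels the group is 1 line at different ages, and medium, passage and line cannot be told apart. For side-by-side values, pESCLC-F was kept in F (2 lines, passage 2), and pESCLC-FLB2i was 1 line moved on at day 18 from FL6i into FLB2i, which holds LIF, FGF2, BMP4 and inhibitors of GSK3 and TGFB receptors (passages 3 and 6). All cultures stood on irradiated mouse embryonic fibroblasts, and whether feeder reads entered the counts was not tested.

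The inner cell mass of a blastocyst holds the epiblast, from which pluripotent lines are taken, and the primitive endoderm (hypoblast), and it is surrounded by the trophectoderm, the epithelium that makes the placenta. Blocking MEK and GSK3 with LIF keeps mouse embryonic stem cells in the naive state, whereas epiblast-like, primed cells rely on FGF2 with ACTIVIN or NODAL. Blocking NODAL and BMP signals together is also a well-known way to turn pluripotent cells into neural ectoderm, in which CDH1 gives way to CDH2 and the transcription factors PAX6 and ZIC1 come on.

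The passage 9 sample stood apart from the other 3 in several ways. It had 6193659 reads on genes, against 15179200 at passage 3 and 17887375 and 16493637 in the outgrowths, so 1 read was worth 2.62 normalized counts in it. Passages 3 and 9 differed by at least 3 on the log2 scale in 882 genes, 5.95% of those tested, and the outgrowths in 99 genes, 0.668%. Across the 14820 genes Pearson's r of the log2 values was 0.849 between the passages and 0.973 between the outgrowths, and passage 3 had r = 0.952 with pESCLC-FLB2i at passage 3. The Y-linked genes did not follow the shared line code: EIF1AY had 7.34 normalized counts at passage 3 and 86.5 at passage 9, beside 270 and 8.74 in the outgrowths, and KDM5D had 0 and 26.2 beside 68.9 and 1.09. Whether both passages hold the cells of 1 embryo was not tested. Against pESCLC-primary, the count of called genes in each whole list is given with and without passage 9. Each such count is to be read beside the share of all genes called in the same fit. Those shares are given in the next paragraph and were larger without passage 9. Whether the separate samples came from separate embryos is not stated for the outgrowths, and the p-values measure only the spread between these samples.

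Of the 14820 genes, 2268 (15.3%) had an adjusted p of at most 0.05 by limma on log2(normalized count + 1) and are called changed. In pESCLC-FL6i 1273 of them (8.59%) were higher and 995 (6.71%) lower, and 1509 (10.2%) also changed by 3 or more on the log2 scale, 906 (6.11%) higher and 603 (4.07%) lower. In every called gene both passages lay on the same side of both outgrowths, which held for 65.5% of the genes tested. The median log2 fold change of all tested genes was -0.04, with a median standard error of 0.458. Without passage 9, 3687 genes (24.9%) were called, 1667 (11.2%) higher and 2020 (13.6%) lower, and 2056 of the 2268 genes were among them in the same direction. Without passage 3, limma called 6806 genes (45.9%), and DESeq2 on the reads of all 4 samples called 3753 (25.3%). Leaving out either outgrowth left no called gene, since the spread then came from the passages alone, with 2266 and 2071 genes at an unadjusted p under 0.05. Of the called genes described next, TGFB2, FZD10, JAG1, MX1, TBXT and CDX2 lost their call without passage 9, and FZD10, JAG1 and CDX2 also without passage 3. The called genes closest to the log2 fold change threshold of 3 had 3.00 on both sides. Of the genes with at least that change, 111 had no read in either outgrowth and 115 had none at either passage.

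**Figure D1:**
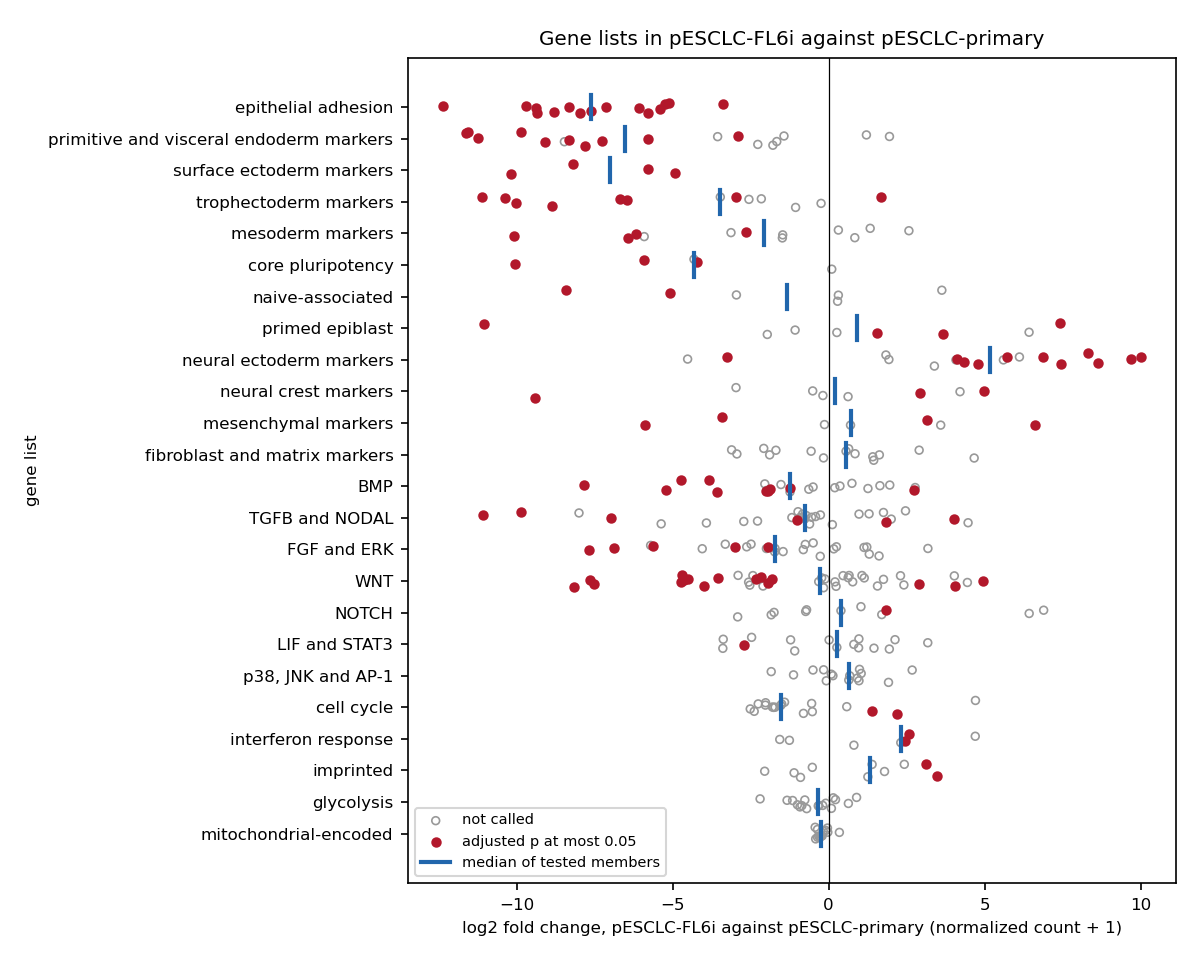
Log2 fold change of pESCLC-FL6i against pESCLC-primary for the tested members of 24 gene lists, 1 point per gene, with called genes filled and the median of each list as a bar. The 15 epithelial adhesion genes all lie left of 0, while the neural ectoderm markers spread to the right with a median of 5.19, against -0.04 over all genes.

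Epithelial genes fell together. Of 16 epithelial adhesion genes listed, 15 were tested and all 15 were called lower, with a median log2 fold change of -7.60, and the same 15 were called without passage 9 (median -7.39). CDH1 (ENSSSCG00000025652), E-cadherin, which joins epithelial cells at adherens junctions, had 9284 and 11344 normalized counts in the outgrowths and 18.9 and 83.8 at passages 3 and 9. EPCAM, an epithelial surface adhesion molecule, had 6158 and 7098 against 68.2 and 15.7. No value of either gene at any passage came near those of the outgrowths, and the log2 fold changes were -7.97 (SE 0.75, limma adjusted p = 0.0124) and -7.60 (SE 0.74, adjusted p = 0.0126). CLDN4 (ENSSSCG00000007718), a tight junction claudin, had 4352 and 6356 normalized counts in the outgrowths and no read at either passage, which makes it at least 554-fold lower by a floor of 3 reads per library. The other members with the largest falls were ST14, a membrane protease of epithelia (2763 and 3074 against 11.5 and 0), CLDN7 (2524 and 2783 against 14.7 and 0) and CLDN6 (5118 and 6182 against 7.34 and 7.86). ESRP1, an epithelial splicing regulator, went from 1929 in both outgrowths to 10.5 and 15.7. The smallest fall was that of DSP, desmoplakin of the desmosomes, from 17252 and 20401 to 3189 and 1027, and DSP made up 86.2% and 72.9% of the summed level of the list at the passages, against 25.2% and 24.9% in the outgrowths. In bulk RNA, fewer cells of a kind and less RNA per cell cannot be told apart.

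GRHL2, a transcription factor that keeps epithelial genes on and was listed with the surface ectoderm markers, had 1643 and 1691 normalized counts in the outgrowths against 1.05 and 0. The other tested surface ectoderm markers were also called lower, with a median of -7.00 over 4 genes (-6.56 with genes at 0 set to their bounds): TP63 (569 and 540 against 0 and 2.62), GRHL3 (66.9 and 44.8 against no reads) and DLX3 (55.1 and 32.8 against 1.05 and 0). All 4 were called without passage 9 as well. ZEB1, a repressor of epithelial genes that binds E-boxes, moved the other way, from 37.4 and 7.65 to 2183 and 1470, a log2 fold change of 6.62 (SE 0.83, limma adjusted p = 0.0182). SNAI1, another E-box repressor, was called lower (232 and 213 against 22 and 18.3, log2 fold change -3.40).

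The E-box CAGGTG was looked for on both strands in the 250 bases before each gene start, a motif chosen after these values were seen. It was in 7 of 15 windows of the epithelial adhesion genes (46.7%), but in near that share of the trophectoderm markers (6 of 15, 40%) and of the mesenchymal markers (3 of 7, 42.9%), which did not all fall. It was in 26.3% of those of all genes called lower, in 15.9% of those called higher and in 18.9% of all 13152 windows. The windows of CDH1, CLDN4, GRHL2 and ESRP1 hold 2, 2, 2 and 1 matches, shown here because these genes fell together, and that of EPCAM holds none. GRHL2 is from the surface ectoderm markers, of which 1 of 5 windows (20%) held the E-box. Whether ZEB1 has a part in these falls was not tested. The windows shown are the 250 bases before the start of the RefSeq gene in Sscrofa11.1, 5′ to 3′ on the strand of the gene, with the E-boxes in capitals. A match is only a run of letters and no binding was measured.
CDH1 (chr6:18155987-18156236, minus strand): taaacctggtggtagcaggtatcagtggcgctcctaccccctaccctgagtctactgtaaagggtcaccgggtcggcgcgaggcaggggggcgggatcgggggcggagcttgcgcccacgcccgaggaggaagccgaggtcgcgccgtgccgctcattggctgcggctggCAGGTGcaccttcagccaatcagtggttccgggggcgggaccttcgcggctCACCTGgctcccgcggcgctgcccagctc
CLDN4 (chr3:11039461-11039710, plus strand): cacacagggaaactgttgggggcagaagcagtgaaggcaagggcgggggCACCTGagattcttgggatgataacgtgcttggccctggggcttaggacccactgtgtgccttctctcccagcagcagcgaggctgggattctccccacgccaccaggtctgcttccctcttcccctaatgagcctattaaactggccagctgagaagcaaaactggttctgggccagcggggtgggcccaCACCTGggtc
GRHL2 (chr4:35565395-35565644, minus strand): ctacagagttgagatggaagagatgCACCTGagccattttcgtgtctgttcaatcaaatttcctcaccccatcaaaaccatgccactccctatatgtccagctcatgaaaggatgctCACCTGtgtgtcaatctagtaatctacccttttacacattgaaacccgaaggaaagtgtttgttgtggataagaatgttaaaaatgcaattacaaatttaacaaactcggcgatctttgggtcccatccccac
ESRP1 (chr4:42061707-42061956, minus strand): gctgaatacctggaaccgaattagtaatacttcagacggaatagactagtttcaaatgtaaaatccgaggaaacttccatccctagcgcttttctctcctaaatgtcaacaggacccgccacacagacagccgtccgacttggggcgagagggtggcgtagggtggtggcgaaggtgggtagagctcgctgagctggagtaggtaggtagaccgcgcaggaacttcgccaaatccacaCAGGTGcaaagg

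Genes of the extraembryonic lineages and of mesendoderm were called lower in part. Of 18 tested primitive and visceral endoderm markers, 10 were called lower and none higher, with a median of -6.52 (-4.92 with genes at 0 set to their bounds); without passage 9, 13 were called lower. Their summed level was 173466 and 250488 normalized counts in the outgrowths and 5272 and 6987 at passages 3 and 9, where LAMA1 and COL4A2, both basement membrane genes, had the most normalized counts. FOXA2, GATA4 and HNF4A, regulators of endoderm, were among the genes that fell most of all. FOXA2 had 3030 and 3287 normalized counts in the outgrowths and no read in the line, at least 385-fold lower. GATA4 had 6692 and 8623 against 0 and 5.24, and HNF4A, a regulator of yolk sac and liver genes, had 7811 and 8335 against 2.1 and 2.62. These are 3 of the 12 genes with a symbol that fell most. APOE and APOA1, apolipoproteins that visceral endoderm secretes, had 52416 and 75057 against 23.1 and 191, and 68583 and 111894 against 383 and 65.5. For GATA6, an early primitive endoderm factor, the values were 2740 and 2561 against 0 and 55.0; its log2 fold change of -8.47 had an SE of 2.00 and was not called (limma adjusted p = 0.0619). AFP had no read in either group, and SOX17 was not analysed here.

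Of 13 tested trophectoderm markers 7 were called lower and 1 higher, with a median of -3.47 (-2.98 with bounds), and 8 and 1 without passage 9. KRT18 and KRT8, keratins of simple epithelia, had 106335 and 129060 against 39.9 and 68.1, and 230905 and 265084 against 266 and 128, and as genes with many near-identical copies their counts are uncertain. KRT7 (1679 and 2279 against 0 and 2.62) and GATA3, a trophectoderm transcription factor (1858 and 1683 against 0 and 13.1), fell with them. CDX2, which specifies trophectoderm, was uneven in the outgrowths, with 388 and 26.2 normalized counts, and had no read in the line, at least 3.34-fold lower. TFAP2A, which also marks neural crest and surface ectoderm, was the member called higher (161 and 146 against 502 and 477).

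Mesoderm markers were called lower in 4 of 12 and higher in none, with a median of -2.07 (-1.67 with bounds). The count was also 4 without passage 9, but without TBXT (limma adjusted p = 0.0657). EOMES, a T-box factor of mesendoderm, had 5381 and 6221 normalized counts in the outgrowths against 1.05 and 13.1. TBXT, brachyury of the primitive streak, was again uneven in the outgrowths (174 and 28.4) and had no read in the line, at least 3.62-fold lower, and MIXL1, at 92.5 and 77.6, was at least 9.87-fold lower. KDR, a receptor of early mesoderm and endothelium, fell from 1295 and 991 to 171 and 189. Of the endothelial markers CDH5 was called lower (227 and 66.7 against 0 and 2.62), and of the germ cell markers PRDM1, which also marks endoderm, was called lower (2434 and 2710 against 114 and 152), 1 gene in each list with or without passage 9. The summed level of the 7 immune cell markers was 101 and 125 in the outgrowths and 90.2 and 152 in the line, and none of the 3 tested was called by limma with or without passage 9, nor by edgeR or DESeq2 (0 at an unadjusted p under 0.05).

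**Figure D2:**
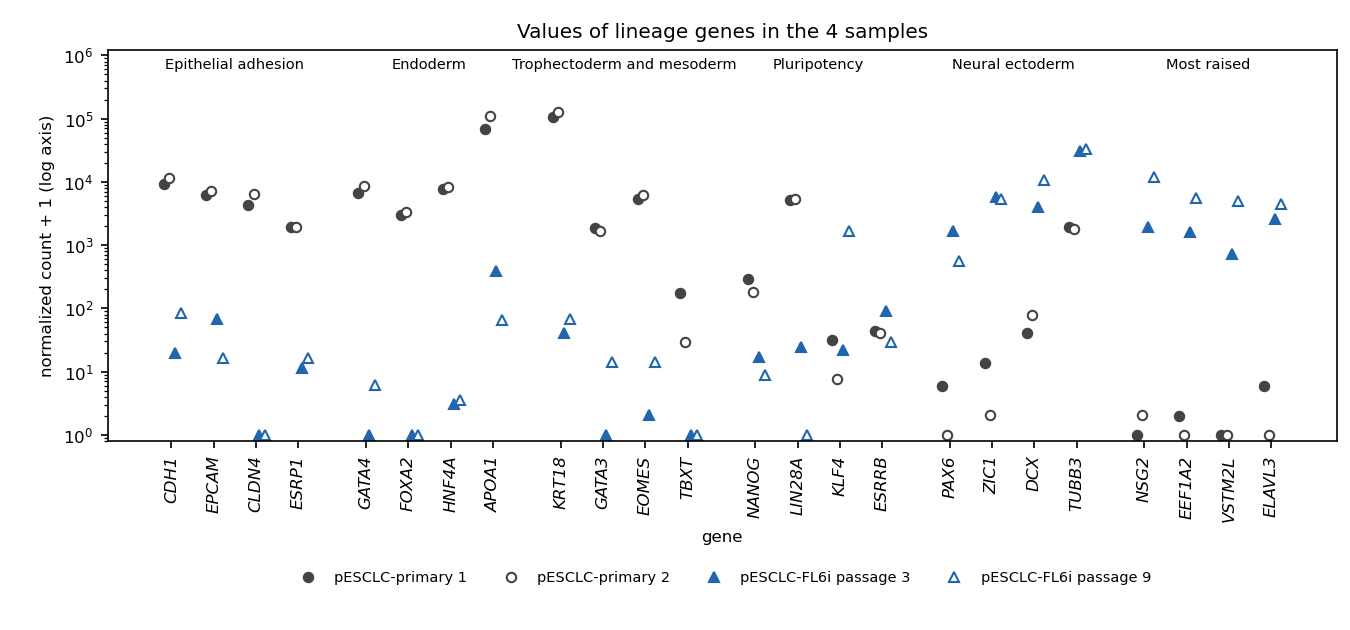
Normalized count + 1 on a log axis for 24 genes in the 4 samples, grouped by lineage; circles are the outgrowths and triangles the FL6i line at passages 3 (filled) and 9 (open). The epithelial and endodermal genes lie far lower at both passages, CDH1 at 18.9 and 83.8 after 9284 and 11344, while ZIC1 rises from 12.8 and 1.09 to 5779 and 5321.

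The pluripotency genes of the lists fell in part. Of 13 core pluripotency genes listed, 5 were in the table under a matched symbol, of which 3 were called lower and none higher (4 without passage 9); POU5F1 and SOX2 were not analysed here. NANOG (ENSSSCG00000040403), the homeobox factor that guards the pluripotent state, had 287 and 178 normalized counts in the outgrowths against 15.7 and 7.86, of which the last is 3 reads. LIN28A (ENSSSCG00000003557), an RNA-binding protein of early embryonic cells, had 5185 and 5313 against 23.1 and 0, and GDF3, a TGFB family ligand of pluripotent cells, had 72.8 and 48.1 against no reads. None of these 3 genes overlapped between the groups, with log2 fold changes of -4.22 (SE 0.63, limma adjusted p = 0.0244) for NANOG and -10.06 (SE 1.60, adjusted p = 0.0275) for LIN28A, and GDF3 at least 6.12-fold lower. Beside them, LIN28B had 2018 and 2044 against 473 and 21.0 and was not called by limma (adjusted p = 0.138). DESeq2 called 4 of the 5 genes lower, LIN28B among them, and DPPA2 stayed between 26.2 and 49.8 in all 4 samples.

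Of 6 tested naive-associated genes 2 were called lower, with a median of -1.33, and 4 without passage 9, with a median of -3.43. TBX3, which supports naive self-renewal in mouse cells, had 2174 and 1844 against 0 and 34.1, and NR5A2, a nuclear receptor, had 88.5 and 38.3 against 2.1 and 0. KLF4 was split by passage: it had 30.5 and 6.56 normalized counts in the outgrowths, 21.0 at passage 3 and 1653 at passage 9. ESRRB had 43.3 and 39.3 against 91.2 and 28.8, so that passage 3 was above and passage 9 below the outgrowths. Neither KLF4 nor ESRRB was called by limma (adjusted p = 0.339 and 0.802), whereas DESeq2 called KLF4 higher (log2 fold change 5.51, adjusted p = 0.00254). KLF17 and FGF4 had no read in any of the 4 samples.

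Primed epiblast genes went both ways, with 3 of 8 called higher and 1 lower (4 and 1 without passage 9). Among all genes 8.59% were called higher and 6.71% lower with all 4 samples. OTX2, a factor of primed epiblast and anterior neural tissue, had 3565 and 4568 against 0 and 2.62, one of the 12 largest falls. SOX11 rose from 596 and 641 to 1926 and 1700, and POU3F1, with no read in the outgrowths and 306 and 91.7 in the line, was at least 28.0-fold higher. SOX11 and POU3F1 are also used by neural progenitors. The 6 tested genes of DNA methylation and demethylation had no member called by limma, edgeR or DESeq2 (0 at an unadjusted p under 0.05) and a median of -0.98, with 1 called higher without passage 9.

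Neural ectoderm markers were mostly higher in the line. Of 18 tested members 10 were called higher and 1 lower, with a median log2 fold change of 5.19, beside 8.59% of all genes called higher; without passage 9, 12 and 1 were called and the median was 5.42. Both passages lay above both outgrowths in 32.4% of all genes tested. Their summed level was 10613 and 8391 in the outgrowths and 98429 and 105103 in the line, with TUBB3, the tubulin of neurons, as the member of most normalized counts at both passages. ZIC1 (ENSSSCG00000011692), a zinc-finger factor of early neural tissue, had 12.8 and 1.09 normalized counts in the outgrowths against 5779 and 5321, a log2 fold change of 10.01 (SE 0.99, limma adjusted p = 0.0128). LHX5, a homeobox factor of the forebrain and spinal cord, had no read in the outgrowths and 938 and 720 in the line, at least 220-fold higher. PAX6, the neural progenitor factor, had 4.92 and 0 against 1666 and 561 (log2 fold change 8.64, SE 1.13, adjusted p = 0.0192), and NEUROG2, a proneural factor, had none against 537 and 183, at least 55.9-fold higher. The groups did not overlap in any of these 4 genes, and passage 3 was the higher of the passages in each. FABP7, which radial glia express, rose from 56.1 and 32.8 to 7426 and 7930, and DCX, of migrating young neurons, from 40.3 and 76.5 to 4047 and 10906. OTX1, an anterior factor, was the member called lower (21.6 and 29.5 against 1.05 and 2.62). The eye and forebrain factors SIX6 and RAX were at 0 in both passages.

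The largest rises were looked at over all genes, list members included. The 12 genes with a symbol that rose most were NSG2, EEF1A2, VSTM2L, ELAVL3, LRP11, SYT4, ZIC1, ADCYAP1, LAMP5, LRRTM2, GRIA2 and STMN4. NSG2, a neuron-specific endosomal protein, had 0 and 1.09 normalized counts in the outgrowths against 1939 and 11980, the largest rise among genes with a symbol (log2 fold change 11.70, SE 1.06, limma adjusted p = 0.0121). EEF1A2, the elongation factor form of neurons and muscle, had 0.984 and 0 against 1590 and 5494. ELAVL3, an RNA-binding protein of neurons, had 4.92 and 0 against 2575 and 4409, and GRIA2, an AMPA glutamate receptor subunit, had 1.97 and 0 against 740 and 3057. The synaptic vesicle gene SYT4 (0.984 and 0 against 770 and 2900) and the microtubule regulator STMN4 (4.92 and 1.09 against 1569 and 5575) showed the same order, with passage 9 above passage 3 in each of these 6. With no read in either outgrowth, LRP11 was at least 362-fold, LAMP5 at least 250-fold, VSTM2L at least 223-fold, ADCYAP1 at least 216-fold and LRRTM2 at least 118-fold higher. The genes of most normalized counts among those that rose were TUBB2B, VIM, MAP1B, TUBB3, DPYSL3, PEG10, IGFBPL1 and CRABP1, of which TUBB2B, MAP1B, TUBB3 and DPYSL3 belong to the cytoskeleton of growing neurons. MAP1B had 457 and 193 against 21145 and 55560, and CRABP1, which binds retinoic acid, had 50.2 and 110 against 40536 and 6846.

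The 12 genes with a symbol that fell most were CLDN4, FOXA2, GATA4, HNF4A, KRT18, CER1, OTX2, ARHGEF16, PROM2, SLC13A5, KRT8 and CDA. ARHGEF16, a guanine nucleotide exchange factor, and CDA, cytidine deaminase, had no read in the line and were at least 235-fold and 108-fold lower, while PROM2, a prominin of epithelial protrusions, and SLC13A5, a citrate carrier, had log2 fold changes of -10.60 and -10.56. Of the most normalized counts among those that fell were FN1, KRT8, KRT18, APOA1, APOE, COL18A1, VCAN and SLC7A8. COL18A1, of basement membranes, had 43706 and 56021 against 2508 and 427, VCAN, a matrix proteoglycan, 35351 and 41954 against 2479 and 2753, and SLC7A8, an amino acid carrier, 25554 and 35918 against 111 and 587.

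Neural crest markers had 2 of 8 called higher and 1 lower, with a median of 0.22 (3 and 1 without passage 9). Among all genes 8.59% were called higher with all 4 samples. SOX9, a factor of neural crest and of glia, rose from 249 and 193 to 1542 and 1823. ERBB3, a neuregulin receptor also found in epithelia, fell from 7928 and 8714 to 15.7 and 7.86. SOX10, the defining factor of the lineage, was at 16.7 and 19.7 against 22 and 36.7 and was not called (adjusted p = 0.517).

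Mesenchymal and matrix genes did not behave as 1 group. Of 7 tested mesenchymal markers, VIM and ZEB1 were called higher and FN1 and SNAI1 lower, with the same counts without passage 9. VIM, the intermediate filament of mesenchyme and of neural progenitors, had 4892 and 4252 against 36594 and 45610, and FN1, fibronectin, had 300932 and 380116 against 1791 and 17917. CDH2, N-cadherin, had 6417 and 5155 against 6278 and 4380 and was not called.

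The 15 fibroblast and matrix markers separated the passages. With both passages limma and edgeR called no member (1 at an unadjusted p under 0.05 by limma) and DESeq2 called 3 higher, with a median of 0.56 by limma; without passage 9, 7 were called lower and 1 higher and the median was -2.01, and without passage 3 the median was 3.30. For comparison, DESeq2 called 25.3% of all genes in either direction. The summed level of the list was 35525 and 25427 normalized counts in the outgrowths, 4865 at passage 3 and 337300 at passage 9. COL1A1, the main collagen of connective tissue, had 2053 and 1318 in the outgrowths, 165 at passage 3 and 155568 at passage 9, where it made up 46.1% of the list. COL3A1 had 12636 and 7644, then 29.4 and 53973, and POSTN, a matrix protein of activated fibroblasts, 422 and 183, then 1.05 and 3639. For each of these 3 genes passage 3 lay below and passage 9 above both outgrowths. At passage 3 COL6A3 was at 0, and at passage 9 no member was. GFAP, the intermediate filament of astrocytes, chosen after its values were seen, had 63.9 and 37.2 in the outgrowths, 52.4 at passage 3 and 18931 at passage 9. The part of this shift in the other results at passage 9 was not tested, and epithelial adhesion, endoderm and neural counts without passage 9 were given above.

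**Figure D3:**
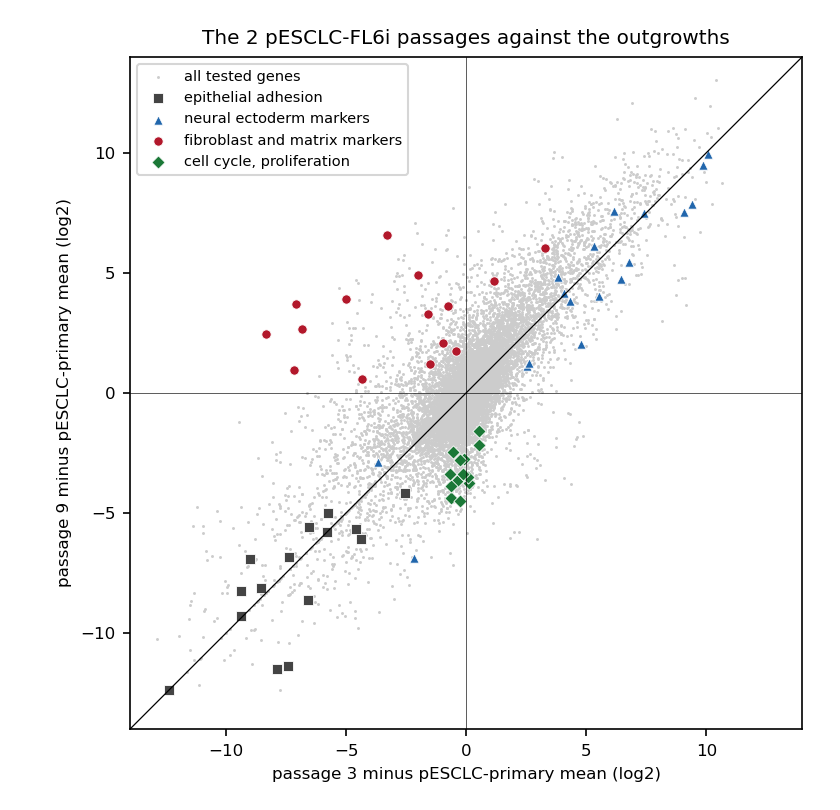
Log2 difference of passage 3 (x axis) and of passage 9 (y axis) from the mean of the outgrowths for all 14820 tested genes, with 4 lists marked and the diagonal of equal change drawn. Epithelial and neural genes follow the diagonal, fibroblast and matrix markers lie above it and proliferation genes below it.

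Genes of the cell cycle also separated the passages. None of the 13 tested proliferation genes was called by limma, edgeR or DESeq2 (0 at an unadjusted p under 0.05), and their median log2 fold change was -1.76, -0.26 without passage 9, where 1 was called lower, and -3.40 without passage 3. TOP2A, the topoisomerase of dividing cells, had 13864 and 12001 in the outgrowths and 14170 at passage 3, but 961 at passage 9, and CCNB1, the mitotic cyclin, had 3628 and 3162, then 2190 and 160. Of 5 tested inhibitors of the cell cycle RB1 (144 and 139 against 705 and 608) and CDKN1B (421 and 333 against 1038 and 935) were called higher, and 3 of the 5 were without passage 9.

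In the BMP pathway, whose receptors are blocked in FL6i, 9 of 23 tested genes were called lower and 1 higher, with a median of -1.25 (11 and 1 without passage 9). With all 4 samples limma called 6.71% of all genes lower and 8.59% higher. The falls in the BMP list included ligands and targets. Of the 5 ligands 3 were called lower: BMP2 had 4507 and 5504 against 12.6 and 34.1, BMP7 2155 and 1948 against 210 and 141, and BMP4 1544 and 1649 against 368 and 506. Among the 4 receptors none was called by limma, edgeR or DESeq2 (0 at an unadjusted p under 0.05), and of the transducers SMAD1 fell from 2221 and 2694 to 601 and 671. The feedback inhibitors SMAD6 (1677 and 1241 against 60.8 and 23.6) and BAMBI (2058 and 1919 against 142 and 134) were called lower. Of the target genes, ID1 (3511 and 3775 against 1324 and 605, log2 fold change -2.02, SE 0.43, limma adjusted p = 0.0496), ID3 (5113 and 5011 against 2359 and 1928, log2 fold change -1.25) and MSX2 (2384 and 1927 against 115 and 55.0) were called lower and ID4 was called higher (531 and 438 against 2710 and 3835). ID2 lay lower at both passages (2883 and 2326 against 1474 and 1884) but was not called (adjusted p = 0.172). ID1 to ID4 code for inhibitors of proneural and other helix-loop-helix factors, and 2 of the 4 thus fell and 1 rose.

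In TGFB and NODAL signalling, also blocked in FL6i, DESeq2 called 7 of 29 lower and 5 higher, beside 25.3% of all genes in either direction. By limma 4 were called lower and 2 higher, beside 6.71% and 8.59% of all genes, with a median of -0.77. Without passage 9, 14 were called lower and 1 higher and the median was -1.38, and without passage 3 the median was 0.016. NODAL, the ligand that patterns the epiblast, had 3856 and 4372 against 2.1 and 5.24, a log2 fold change of -9.87 (SE 0.53, limma adjusted p = 0.00962), and its antagonist CER1, of anterior visceral endoderm, had 2481 and 1855 against no reads, at least 236-fold lower. SKIL, a repressor of SMADs, fell from 2173 and 1996 to 1052 and 996. TGFB2, a ligand, rose from 67.9 and 23.0 to 394 and 1069, and ACVR2A, an activin receptor, from 242 and 297 to 762 and 1237. SMAD7, the feedback inhibitor, had 649 and 695 against 45.1 and 225 and was not called by limma (adjusted p = 0.107). THBS1, a target, was 439 at passage 3 and 36059 at passage 9 beside 1303 and 2020, and made up 60.1% of the list at passage 9.

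In FGF and ERK signalling, blocked at MEK, 5 of 25 were called lower and none higher, with a median of -1.72; without passage 9, 12 were called lower and 1 higher. The share of all genes called lower was 6.71% with all 4 samples and larger without passage 9. FGF8, a ligand of the primitive streak, had 309 and 275 against 1.05 and 0, and FGFR4, a receptor, 876 and 1207 against 14.7 and 26.2. Among its feedback inhibitors and targets, DUSP6, a phosphatase that ERK induces against itself, had 2475 and 1773 against 151 and 440 (log2 fold change -3.02, SE 0.59, limma adjusted p = 0.0412), and ETV4, an ETS factor induced by FGF, 1681 and 1261 against 5.24 and 23.6. CCND1, cyclin D1, also a listed target, was not called and was highest at passage 3 (1983 and 1931 against 2300 and 589). SPRED2, an inhibitor of the pathway, was the fifth called (2077 and 2806 against 535 and 744). SPRY4 (494 and 526 against 3.15 and 228) and ETV5 (1667 and 1760 against 3.15 and 259) lay below both outgrowths at both passages. The passages were far apart, and limma called neither (adjusted p = 0.245 and 0.143). DESeq2 called 5 of the 9 feedback inhibitors and 2 of the 8 targets lower, beside 25.3% of all genes in either direction.

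In the WNT pathway, in which CHIR99021 blocks GSK3 and so spares beta-catenin, 13 of 40 were called lower and 3 higher, with a median of -0.27 (14 and 7 without passage 9). Limma called 6.71% of all genes lower and 8.59% higher with all 4 samples. Of 11 receptors, 6 were called lower and 1 higher. FZD5 had 7840 and 12517 normalized counts against 45.1 and 62.9, FZD4 2877 and 3416 against 136 and 99.6, and FZD10 moved the other way, from 194 and 31.7 to 4111 and 1464. Of the ligands WNT6 fell from 526 and 553 to 0 and 2.62, and of the secreted inhibitors DKK1 fell from 919 and 743 to 0 and 15.7 while WIF1 (4.92 and 5.47 against 102 and 99.6) and DKK3 (195 and 249 against 1026 and 2638) rose. Of the 11 tested targets limma called 2 lower and none higher, with a median of -2.10. LGR5, a stem cell receptor for R-spondins, fell from 1730 and 1438 to 125 and 141 (log2 fold change -3.56, SE 0.28, limma adjusted p = 0.0102). AXIN2, the general feedback target of beta-catenin, lay above both outgrowths at both passages (598 and 407 against 2420 and 1153, log2 fold change 1.76, SE 0.46). It was not called by limma (adjusted p = 0.0765), whereas DESeq2 called 1 of the 11 targets higher and 2 lower. LEF1 (291 and 110 against 156 and 5.24) and SP5 (231 and 184 against 211 and 2.62) were within the range of the outgrowths at passage 3 and far below it at passage 9. Neither was called by limma (adjusted p = 0.369 and 0.385).

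Of the LIF and STAT3 genes 1 of 15 was called, PIM1, a kinase gene that STAT3 induces, which fell from 1331 and 1438 to 168 and 259; without passage 9, 4 were called lower and 2 higher. Over all genes limma called 6.71% lower and 8.59% higher with all 4 samples, and more in both directions without passage 9. DESeq2 called 3 of the 15 higher and 3 lower, beside 2268 and 1485 of all 14820 genes. The receptor LIFR had 577 and 379 against 458 and 1810, and SOCS3, the feedback inhibitor of the pathway, 471 and 650 against 947 and 2429. SOCS3 lay above both outgrowths at both passages with a log2 fold change of 1.45 (SE 0.53), which was not called by limma (adjusted p = 0.148), and LIFR overlapped. Of the 5 targets DESeq2 called 1 higher and 1 lower. STAT3 itself had 933 and 925 against 2434 and 6775 (adjusted p = 0.0711). None of the 15 tested p38, JNK and AP-1 genes was called by limma (2 at an unadjusted p under 0.05) or edgeR, whereas DESeq2 called 2 higher and 1 lower, and limma called 2 in each direction without passage 9. FOS had 202 and 95.1 in the outgrowths, 17.8 at passage 3 and 4388 at passage 9. Of the 11 tested NOTCH genes DESeq2 called 3 higher and 2 lower, beside 25.3% of all genes in either direction. The limma share of all genes called higher was 8.59% with all 4 samples. In the NOTCH list 1 of 11 was called, the ligand JAG1, which rose from 359 and 602 to 2036 and 1349, and without passage 9, 3 were called higher and 2 lower.

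**Figure D4:**
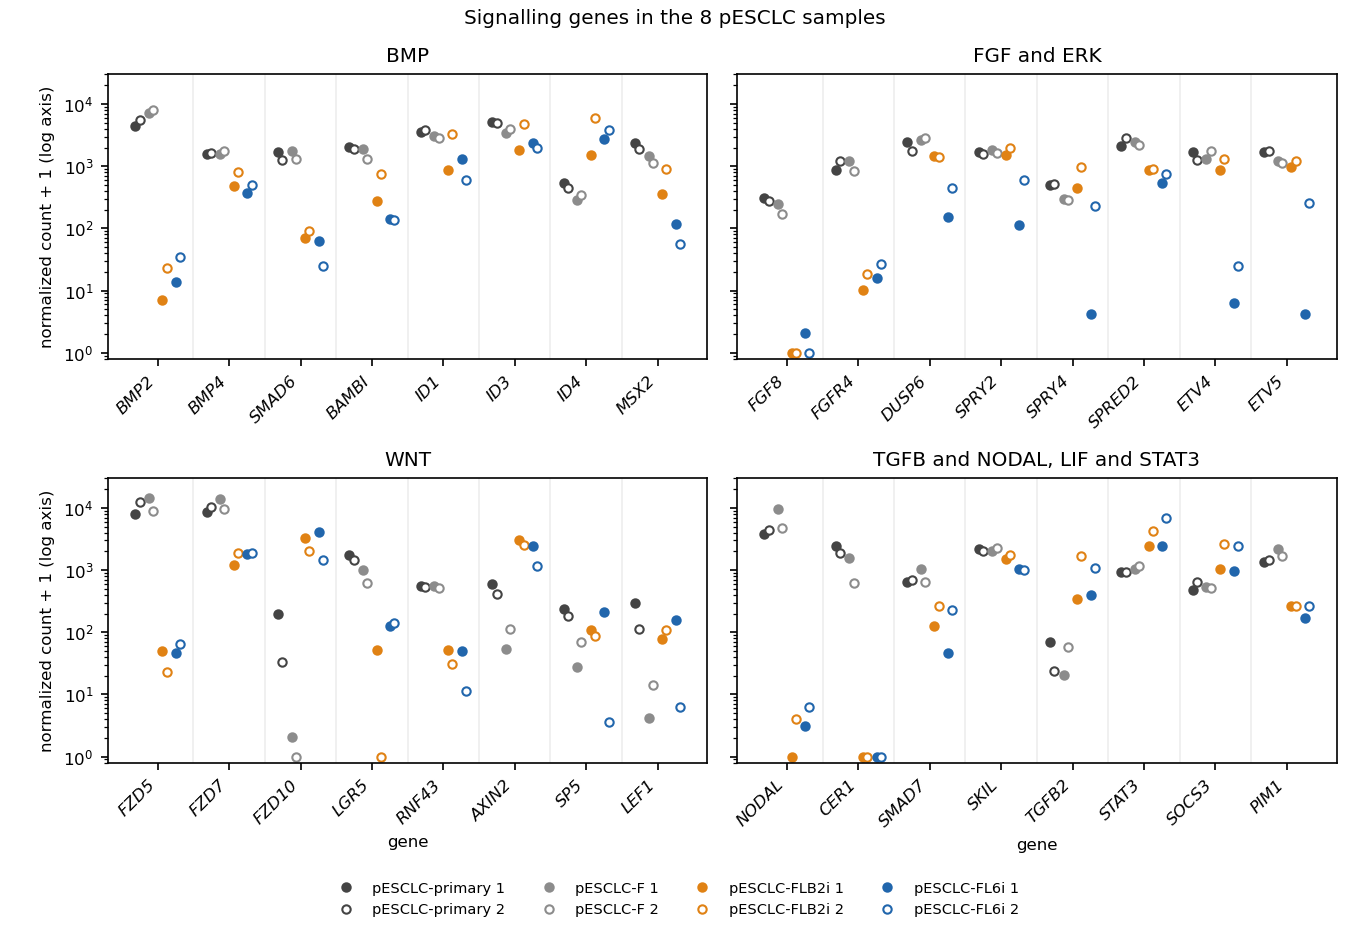
Normalized count + 1 on a log axis for 8 genes of each pathway in the 8 pESCLC samples, filled for the first and open for the second sample of each group (passages 3 and 9 for pESCLC-FL6i). BMP2, FZD5, NODAL and CER1 are low in both FLB2i and FL6i, whereas ETV4 lies at 881 and 1307 in FLB2i and at 5.24 and 23.6 in FL6i.

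The windows of 250 bases before the gene starts were searched on both strands for a motif of each pathway's transcription factors. The TCF/LEF motif CTTTGAT was in 3 of 40 windows of the WNT list (7.50%) against 1.67% of all 13152 windows. The ETS motif GGAAGT was in 5 of 25 of the FGF and ERK list (20%) against 17.8%. The STAT motif TTCNNNGAA was in 2 of 14 of the LIF and STAT3 list (14.3%) against 5.55%. These shares rest on few windows. Some unrelated lists had higher ones, such as TCF/LEF in 2 of 7 germ cell windows (28.6%) and STAT in 1 of 4 core pluripotency windows (25%), while many lists had no match. The windows of AXIN2 and SOCS3, the feedback genes that lay above both outgrowths without being called by limma, each held 1 match, in capitals. The windows of LEF1, which was not higher in the line, of NKD1 in the WNT list and of CISH in the LIF and STAT3 list also held 1 each. Those of LGR5, SP5 and PIM1 held none of the motif of their pathway.
AXIN2 (chr12:12343208-12343457, minus strand): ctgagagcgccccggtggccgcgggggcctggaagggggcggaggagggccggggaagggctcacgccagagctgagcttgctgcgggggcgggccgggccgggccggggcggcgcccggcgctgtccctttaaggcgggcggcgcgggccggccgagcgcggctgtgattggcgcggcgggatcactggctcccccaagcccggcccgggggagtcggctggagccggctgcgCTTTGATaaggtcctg
SOCS3 (chr12:3643582-3643831, plus strand): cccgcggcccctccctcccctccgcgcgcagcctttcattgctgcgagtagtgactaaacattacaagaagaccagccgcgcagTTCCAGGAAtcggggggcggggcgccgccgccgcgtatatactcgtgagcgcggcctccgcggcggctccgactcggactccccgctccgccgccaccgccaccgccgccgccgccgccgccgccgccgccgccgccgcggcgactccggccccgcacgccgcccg

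For the lists of this paragraph, limma called 8.59% of all genes higher and 6.71% lower with all 4 samples. None of 17 tested glycolysis genes, 15 cholesterol synthesis genes or 13 mitochondrially encoded genes was called by limma (3, 3 and 0 at an unadjusted p under 0.05) or edgeR. DESeq2 called 2 glycolysis genes lower. The lists had medians of -0.33, -0.47 and -0.25, and the glycolysis genes ran from -2.20 to 0.89; without passage 9 the glycolysis median was 0.037, 2 glycolysis genes were called lower and 1 cholesterol gene higher. Of 7 tested interferon response genes 2 were called higher, with a median of 2.31 (1 higher and 1 lower without passage 9), among them MX1, an antiviral GTPase (39.3 and 54.7 against 238 and 335). Of 10 tested imprinted genes 2 were called higher, both expressed from the paternal copy (3 higher and 1 lower without passage 9): PEG10 (2715 and 2127 against 17663 and 39608) and PEG3 (478 and 574 against 2919 and 7131).

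The same lists were set against the other embryo-derived lines, comparisons that share the 2 pESCLC-FL6i samples. Against pESCLC-F, 3197 of 14748 genes (21.7%) were called by limma, 1791 (12.1%) higher and 1406 (9.53%) lower in pESCLC-FL6i. All 15 tested epithelial adhesion genes were lower than in pESCLC-F, 16 of 20 primitive and visceral endoderm markers were lower and 12 of 17 neural ectoderm markers were higher. CDH1 had 12401 and 11767 normalized counts in pESCLC-F, near those of the outgrowths, and ZIC1 had 1.05 and 3.03.

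Against pESCLC-FLB2i limma called 0 of 14495 genes, with 664 genes at an unadjusted p under 0.05 and a smallest adjusted p of 0.901; edgeR called 0, with 725 at an unadjusted p under 0.05, and DESeq2 called 164 (1.13%), 123 higher (0.849%) and 41 lower (0.283%) in pESCLC-FL6i. Both groups hold early and late passages, and p-values that miss the threshold do not show that the lines are alike. CDH1 had 125 and 16.8 normalized counts in pESCLC-FLB2i, ZIC1 8620 and 11192, and NANOG 24.6 and 20.7, values on the side of pESCLC-FL6i. ETV4 was one of the genes called lower by DESeq2 (881 and 1307 in pESCLC-FLB2i against 5.24 and 23.6).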

How the data were processed

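Polyadenylated RNA was sequenced paired-end from 14 samples with a stranded kit. According to the methods and labels, the authors aligned reads to Sscrofa11.1 with TopHat2 2.1.0, counted them with HTSeq at its defaults and normalized them with DESeq2, and the release of the annotation is not given in the sources used here. The deposited signal values are the authors' normalized counts, reads scaled by a single factor for each sample, estimated from the 14 samples together. Dividing each value by the lowest nonzero one of its sample gave a whole number for 100.0% of values in every sample (tolerance 0.01 reads), and these were taken as the reads. Overlapping and antisense genes, and genes with near-identical copies, are uncertain. Shares of a list's sum and orders by level are in normalized counts not divided by gene length, so that long genes weigh more in them.

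Normalized counts, not raw counts, were deposited, so limma 3.58.1 with a trend, in R 4.3.3, was the main test, on log2(normalized count + 1), with Benjamini-Hochberg adjustment over all 14820 genes. This scale understates the change of low genes. DESeq2 1.42.0 and edgeR 4.0.16 were run on the recovered reads as alternatives, and the tests were tried on simulated data. Floors are 3 reads per library and cover counting error only. Of 482 symbols in 30 lists, 69 had no identifier in the table and were not analysed here. Symbols, coordinates and promoter windows came from RefSeq tables (Sscrofa11.1). A symbol was found for 14151 genes, and 13152 of these had a window. Named genes were, in each list, the called genes of largest change (up to 4 in each direction) with 30 defining genes, the 12 with a symbol that rose and fell most, and the 8 of highest level in each direction; some of these are not reported here. The members, lists and tests were chosen with earlier results of these data known, and the E-box and the genes so marked were chosen after their values were seen. The alternatives are those of the closing section.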

Additional observations from a re-analysis of the deposited data

How the results depend on the processing

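Direction held for the 116 named genes that were refitted in the alternatives that kept all 4 samples: of 1035 such fits, 971 kept their side of the threshold, 51 lost a call, 13 gained one and 0 reversed. Calls against pESCLC-primary numbered 2268, 1908 and 2339 with pseudocounts of 0.1 and 5, 1981 with no filter, 2124 with a minimum of 50, 2269 with size factors set within the 4 samples, 2297 with the replicate block and 1862 by edgeR. They rose to 3753 by DESeq2 and 5342 in 1 fit on all 14 samples. Leaving out each sample in turn gave 0 to 6806 calls and 0 to 2391 genes past the log2 threshold of 3 (1509 with all samples): 0 without either outgrowth, whose smallest adjusted p was 0.0812 and 0.0735, 6806 without passage 3 and 3687 without passage 9. Against pESCLC-F the range was 0 to 6568 (3197 with all samples, 2986 with the replicate block), and against pESCLC-FLB2i limma called 0 in each setting run and DESeq2 164; DESeq2 and edgeR were not run against pESCLC-F. Replicate numbers did not pair outgrowths and passages: their deviations had r = -0.07, and with a block 6 of the 116 genes lost a call and 2 gained one. A single passage turned 3 genes that limma did not call with all 4 samples: leaving out a sample gave log2 fold changes of -0.50 (without passage 3) to 1.13 for ESRRB, -0.030 (without passage 9) to 1.95 for LIFR and -5.84 to 0.033 (without passage 9) for SP5. Medians of 9 of 30 lists changed sign when a sample was left out (TGFB and NODAL, LIF and STAT3, NOTCH, p38 with JNK and AP-1, glycolysis, mesenchymal, fibroblast and matrix, immune and sex-linked). Depth limits passage 9 most, where 3 reads are 7.86 normalized counts, and with 2 samples a group medium, line and passage cannot be told apart.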

Other observations

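HOX genes, which set position along the body axis, were examined after their values were seen. Of 34 such genes, 28 were tested against pESCLC-primary, 24 had a log2 fold change above 0 and 21 lay higher at both passages than in both outgrowths (32.4% of all tested genes did), but only 4 (beside 8.59% of all genes) were called higher by limma and none lower. The called ones were HOXB5 (35.4 and 17.5 normalized counts in the outgrowths against 1008 and 815 at passages 3 and 9), HOXB6 (80.7 and 25.1 against 1501 and 1252), HOXB7 (32.5 and 14.2 against 769 and 1113) and HOXB8 (182 and 20.8 against 2144 and 4315). The first outgrowth was above the second in each of these 4, as it was for HOXA9 (471 and 14.2 against 3885 and 1656, adjusted p = 0.141) and HOXA5 (378 and 21.9 against 8053 and 3746, adjusted p = 0.0663). The median log2 fold change of the 28 was 3.83, and 4.47 without passage 9, where 3 were called and HOXB8 was not (adjusted p = 0.112). In pESCLC-FLB2i, HOXA5 had 499 and 923 normalized counts, HOXA9 57.7 and 115 and HOXA10 0 and 1.97, the last beside 358 and 286 in pESCLC-FL6i. HOXA3 (1229 and 958 against 757 and 293), HOXB2 (800 and 903 against 646 and 458) and HOXB4 (985 and 772 against 746 and 338) lay the other way, higher in pESCLC-FLB2i. DESeq2 called 7 of 26 HOX genes higher in pESCLC-FL6i (0.849% of all genes) and none lower, while limma called 0 of all genes there. Against pESCLC-F limma called 23 of 25 HOX genes higher in pESCLC-FL6i, beside 12.1% of all genes, and none lower.

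Other genes were also chosen after their values were seen. Between pESCLC-FLB2i and pESCLC-FL6i limma called 0 of all 14495 genes, so its calls cannot tell these genes from others. EN2, of the midbrain and hindbrain border, had 624 and 328 normalized counts in pESCLC-FLB2i, whereas pESCLC-FL6i had 10.5 and 15.7, and SIX6, of the eye and forebrain, 101 and 640 against 0 and 0. In the same order LBX1, of dorsal spinal interneurons, had 61.6 and 64.0 against 433 and 1208, FEZF1 had 0 and 0.985 against 965 and 579, and neither had a read in the outgrowths, in which LBX1 was thus at least 132-fold and FEZF1 at least 177-fold lower than in pESCLC-FL6i. Some genes of transmitters rose against the outgrowths: SLC17A6, the glutamate carrier of vesicles (4.92 and 5.47 against 409 and 1040), GAD2, which makes GABA (0 and 1.09 against 124 and 259), SLC6A5, the glycine carrier (no reads against 336 and 589), and TH, which makes catecholamine precursors (no reads against 199 and 516). All 4 were called higher than in the outgrowths by limma, with adjusted p = 0.0128, 0.0138, 0.00962 and 0.0116, and in each passage 9 was the higher passage.

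Over the autosomes and the X chromosome (the Y chromosome had 1 tested gene, not called), median log2 fold changes of the tested genes ran from -0.16 on chromosome 2 to 0.14 on the X chromosome, and the share called from 14.1% on chromosome 12 to 19.9% on chromosome 18.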
